A study of Mus musculus with 14 samples.

Results

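The 10 genes described here are the inhibitors of DNA binding Id1, Id2, Id3 and Id4, the bone morphogenetic protein (BMP) ligands Bmp2, Bmp4 and Bmp7, the activin subunit gene Inhba, and the antagonist genes Fst (follistatin) and Nog (noggin). They were taken by name as rows of the count tables of both ages and make up 10 of the 35976 genes listed there. The RNA came from supporting cells (SCs), the cells that surround the sensory hair cells of the cochlea, in explants cultured for 24 hours and then sorted for green fluorescence. All explants, controls included, carried the Lfng-EGFP reporter transgene, a bacterial artificial chromosome line in which the Lfng regulatory region drives EGFP, on a C57BL/6 background. Compound E groups received 2 μM of this γ-secretase inhibitor, which prevents release of the Notch intracellular domain, and DMSO groups received the solvent alone. There were 4 libraries of each treatment at P0 (dissected at P0 to P1) and 3 of each at P6. The comparisons asked how these genes responded to Notch inhibition at an age when SCs still convert to hair cells and at one when they rarely do. Cochleae were pooled before sorting, the sort keeps any cell that holds EGFP, and no label ties the libraries to separate animals, so p-values measure only the spread between these libraries.

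BMPs and activins are secreted dimers that bind pairs of serine/threonine kinase receptors and act through Smad transcription factors. Noggin binds BMPs and follistatin binds activins, each keeping its ligand from the receptor, while Id genes are among the best known transcriptional targets of BMP signaling. Id proteins have a helix-loop-helix but no DNA-binding region, and by pairing with E proteins they hold factors such as Atoh1, the regulator of hair cell fate, away from DNA. In the developing cochlea, BMP signaling patterns the epithelium on either side of the sensory domain, and activin and follistatin set the timing of sensory differentiation.

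The libraries held 19415066 to 44430063 counts on genes. Values are RPM, counts scaled to 1000000 of that total, or RPM per kilobase of exon (RPKM) where genes are compared with each other. SC markers (Sox2, Prox1, Fgfr3, Lfng, Jag1, Sox9, Sox10 and Otoa) summed to 2296 to 11043 RPM per library and all 8 were detected in every group. Hair cell markers summed to 439 to 1506 RPM and mesenchymal markers to 886 to 3980 RPM, and every marker of both lists was detected in every group. Schwann cell and neuronal markers summed to 22.1 to 99.0 RPM and, at P0, macrophage markers to at most 4.14 RPM. Endothelial, stria vascularis and red blood cell markers summed to at most 14.3 RPM in any library. The Notch targets Hes1, Hes5, Heyl and Nrarp, used as a check of the treatment, summed to 76.6 to 216 RPM in treated and 1129 to 1905 RPM in control libraries at P0, and to 72.0 to 146 and 192 to 479 RPM at P6. The P6 libraries of replicate 3, both from batch 6, stood apart with the highest mesenchymal sums of all (3260 RPM treated and 3980 RPM control). Their macrophage marker sums were 54.3 and 18.98 RPM. They also had the lowest SC sums of their treatment at P6 (2296 and 3326 RPM). Their hair cell sums were the highest of their treatment at that age (1199 and 1062 RPM).

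At the level of sequence, 5 of the 10 genes had a RefSeq (GRCm38.p6) promoter entry. The 250 bases before the start site are shown for Inhba, which fell with compound E at P0, and for Id4, the gene of the 10 whose library-to-library deviations followed Inhba most closely and which was not called. The Inhba window is chr13:16011601-16011850 and the Id4 window is chr13:48260866-48261115, both on the plus strand, and both end before the annotated start of their gene. Capitals mark matches on either strand to the letters GTCT (the Smad box), GGCGCC (a GC-rich Smad element), GTGGGAA (the RBPJ core bound by the Notch complex) and CANNTG (the E-box).
Inhba: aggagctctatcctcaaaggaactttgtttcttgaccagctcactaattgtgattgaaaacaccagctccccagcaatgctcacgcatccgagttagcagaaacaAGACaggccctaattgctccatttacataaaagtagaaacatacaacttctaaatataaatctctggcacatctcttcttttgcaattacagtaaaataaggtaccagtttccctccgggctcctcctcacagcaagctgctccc
Id4: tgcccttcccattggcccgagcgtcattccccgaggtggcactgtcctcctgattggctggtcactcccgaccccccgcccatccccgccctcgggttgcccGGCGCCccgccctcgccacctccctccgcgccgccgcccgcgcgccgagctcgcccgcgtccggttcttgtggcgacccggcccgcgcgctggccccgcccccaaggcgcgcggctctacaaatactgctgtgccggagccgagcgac
The Inhba window held 1 Smad box, read on the minus strand and starting 145 bases before the end of the window, and had a GC content of 43.2%. The Id4 window held 1 GC-rich Smad element and had a GC content of 75.6%. Neither held the RBPJ core, which 5.42% of 32851 promoter windows of this length held, against 9.59% for GGCGCC, 66.2% for the E-box and 82.9% for GTCT. The Bmp4 window held 3 E-boxes and 1 Smad box, the Id3 window 2 Smad boxes, and the Id2 window 1 match to each motif but the RBPJ core. By the GENCODE annotation all 250 bases of the Id3 window and 161 of the Id2 window lie in a UTR, since a transcript starts farther upstream there. These matches describe letters in a window and not bound sites.

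By mean level, the Id genes were the most abundant of the 10 in every group. In P0 DMSO libraries the mean RPKM was 298 ± 86.8 for Id2, 198 ± 29.9 for Id1, 181 ± 68.1 for Id3 and 145 ± 16.9 for Id4 (SD, n = 4), and the ranges of each neighboring pair in this order overlapped. Inhba (26.8 ± 5.38 RPKM) and Bmp7 (25.3 ± 2.95 RPKM) came next, overlapped each other and lay below every Id4 library. Bmp2 followed at 15.4 ± 3.97 RPKM without overlapping Bmp7. Fst, Nog and Bmp4 were all under 1 RPKM in the mean (0.924, 0.767 and 0.505) and could not be ordered by their ranges. With compound E at P0 the order changed in the middle: Bmp2 (57.5 ± 16.6 RPKM) overlapped Id3 (91.0 ± 39.1) and lay above every Bmp7 library (22.3 ± 2.42 in the mean), and Inhba (10.6 ± 2.32 RPKM) lay below all of them. At P6 Id2 stayed first (296 ± 43.8 RPKM with DMSO and 334 ± 53.9 with compound E, n = 3) without overlap with the next gene, and Bmp7 was the most abundant of the 4 ligand genes among the 10 in both treatments.

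**Figure D1:**
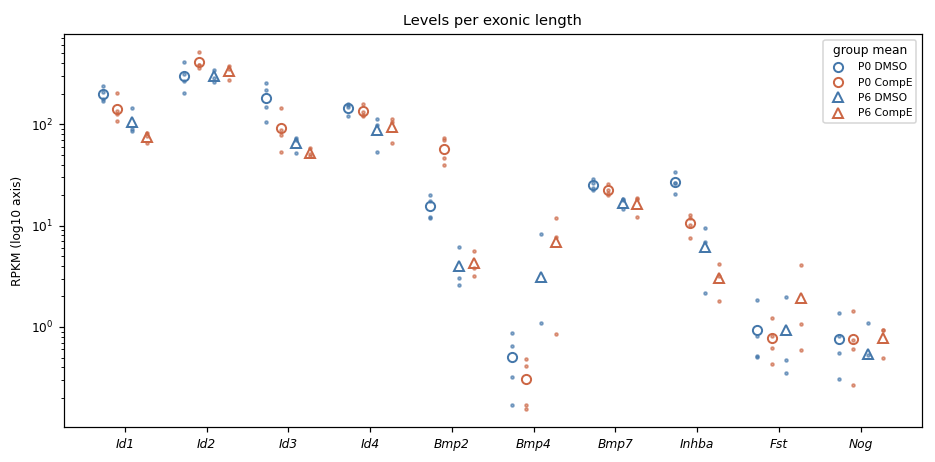
RPKM on a log10 axis for the 10 genes, with small dots for libraries and open symbols for group means (circles P0, triangles P6, blue DMSO, orange compound E). The Id genes lie highest and Fst, Nog and, at P0, Bmp4 lowest, and 1 library at 0 counts for Bmp4 and 1 for Nog cannot be drawn on this axis.

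At P0 the ligand genes Bmp2 and Inhba changed in opposite directions with compound E. A gene was called when its edgeR p, adjusted over all genes tested, was at most 0.01 and its change at least 2-fold. Bmp2, a BMP ligand gene at chr2:133552159-133562885 (GRCm38, plus strand), was at 251, 141, 167 and 259 RPM in compound E replicates 1 to 4 and at 62.8, 43.6, 70.8 and 42.4 RPM in the DMSO replicates. Every compound E library was above every DMSO library, and the smallest gap lay between treated replicate 2 and control replicate 3. The means were 204 ± 59.2 and 54.9 ± 14.1 RPM (SD, n = 4), and the fitted rise was 3.61-fold, with a log2 fold change of 1.85 ± 0.23 (SE) and an adjusted p of 0.00201. The within-pair log2 ratios ran from 1.24 in pair 3 to 2.61 in pair 4, and the exact two-sided permutation test on RPM gave p = 0.0286, the smallest that 4 against 4 libraries allow. Without both libraries of pair 2 or of pair 4, the adjusted p was 0.0108 and 0.0314, and the call was lost. With all libraries and the replicate number as a block, the log2 fold change was 1.84 ± 0.205 (SE), with an adjusted p of 0.00141.

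Inhba, the gene for the βA subunit of activin A, lies at chr13:16011851-16031621 on the plus strand, where the noncoding or predicted genes B230303A05Rik and Gm48444 overlap it on the minus strand. It was at 47.8, 76.2, 81.2 and 64.8 RPM with compound E against 132, 170, 216 and 169 RPM with DMSO. Again no treated library reached a control library, this time from below. Inhba fell 2.61-fold, with a log2 fold change of -1.39 ± 0.22 (SE) and an adjusted p of 0.00758 (exact permutation p = 0.0286), and the within-pair log2 ratios kept to a narrow range of -1.46 to -1.16. The direction held without any 1 library or pair. In 10 of 12 such fits, which used no block, the adjusted p rose above 0.01, up to 0.0963 without pair 4. The call was kept only without the DMSO library of replicate 1 or without pair 1. With all libraries and the replicate number as a block, the log2 fold change was -1.39 ± 0.091 (SE), with an adjusted p of 0.000122. Reads of Inhba and of its overlapping partners cannot be told apart where the counting ignores strand, and its use of strand is not given in the sources used here.

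Of the 10 genes, Bmp2 and Inhba were the 2 called, against 1.22% of the 15937 genes tested at P0. The same count of 2 was called with an adjusted p of 0.05 alone (3.87% of genes), with DESeq2 (1.72%) and with the batch block (2.1%). They were also the 2 whose treatments did not overlap, against 9.88% of genes. In 6 of the 10 all 4 pairs moved in one direction, 4 lower and 2 higher, against 29.1% of genes. The median log2 fold change was -0.26 over the 10 genes and 0.0069 over all genes tested. Beside these changes, the summed SC markers were 5301 to 6378 RPM in treated and 5913 to 11043 RPM in control libraries, hair cell markers 1110 to 1506 and 600 to 1263 RPM, and mesenchymal markers 1191 to 1342 and 917 to 1093 RPM. The SC markers did not move as one. Of the 8, 5 had a lower mean with compound E, led by Lfng (912 against 2791 RPM) and Jag1 (879 against 2197 RPM). The paper counts Lfng among the Notch target genes that compound E lowered. Fgfr3, Sox10 and Otoa had a higher mean (Otoa 224 against 104 RPM). Of the hair cell markers 6 of 7 had a higher mean, led by Myo6 (862 against 499 RPM). The higher mesenchymal sum was that of Lum alone (1051 against 754 RPM), and the other 6 of 7 mesenchymal markers had a lower mean. Their part in the results was not tested, and in bulk samples fewer cells of a type and less RNA per cell cannot be told apart.

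**Figure D2:**
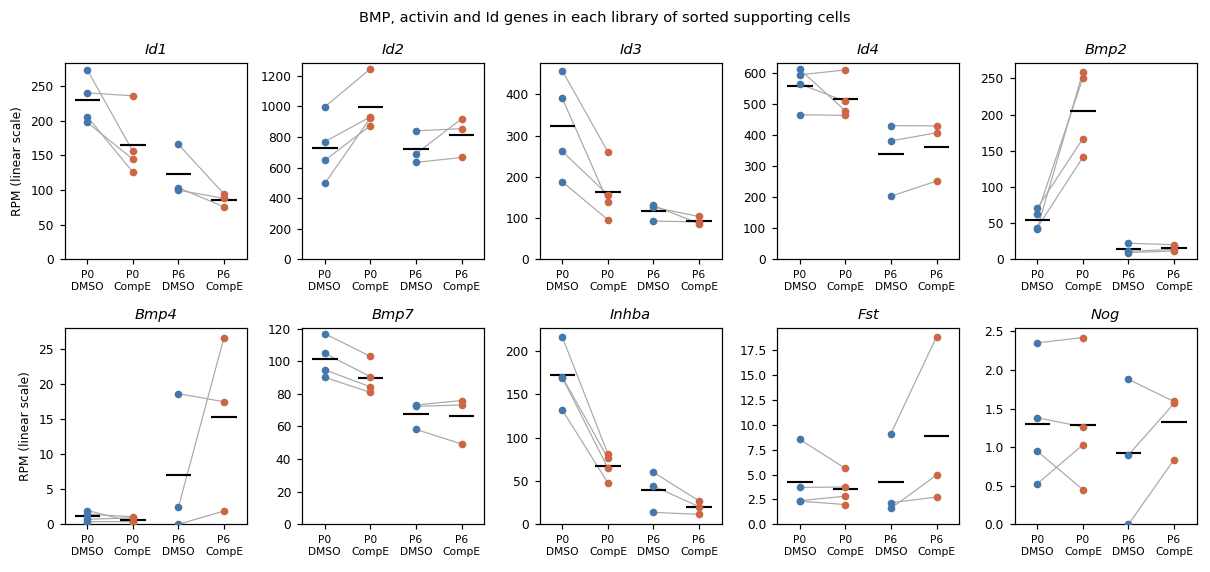
RPM in each library for the 10 genes (linear axes from 0), with grey lines joining libraries of the same replicate number and black bars at group means. At P0 all 4 lines rise for Bmp2, from a mean of 54.9 to 204 RPM, and fall for Inhba, from 172 to 67.5 RPM.

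Among the Id genes at P0, Id3 and Id1 were lower with compound E in all 4 pairs and Id2 was higher in all 4. Id3 was at 261, 139, 95.7 and 157 RPM with compound E against 458, 391, 188 and 262 RPM with DMSO. The highest treated library, replicate 1, lay above the lowest control, replicate 3, so the groups overlapped although each treated library was below its own control. The log2 fold change was -1.04 ± 0.31 (SE) with an adjusted p of 0.125 (exact permutation p = 0.0571), and with the replicate number as a block it was -1.04 ± 0.13 with an adjusted p of 0.00286, which passed both thresholds. With this block 3 of the 10 genes were called at P0, against 2.2% of all genes. With the batch as the block, which joins pairs 3 and 4, the adjusted p for Id3 was 0.0124.

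Id1 was at 236, 156, 126 and 145 RPM with compound E against 240, 273, 206 and 197 RPM with DMSO. Pair 1 was almost level, with a log2 ratio of -0.03, while the other pairs ran from -0.81 to -0.45, and the groups overlapped through that pair. Its log2 fold change of -0.52 ± 0.18 (SE) had an adjusted p of 0.205 without and 0.0563 with the replicate block. Id2 went the other way, at 1247, 875, 932 and 925 RPM in treated and 998, 647, 769 and 496 RPM in control libraries. Treated replicate 1 was the highest library of all, and DMSO replicate 1 lay above the other treated libraries, so the groups overlapped. The log2 fold change of Id2 was 0.41 ± 0.19 (SE), with an adjusted p of 0.372 without and 0.0841 with the block. Id4, which overlaps A330033J07Rik and Gm49291 on the other strand, was at 463 to 609 RPM in treated and 465 to 611 RPM in control libraries and had a log2 fold change of -0.15 ± 0.14 (SE). The 4 Id genes therefore gave no common direction at P0: 3 had lower and 1 a higher fitted value, and none was called without the block.

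Bmp7, a BMP ligand gene, was lower in all 4 pairs by a small and even amount, with log2 ratios of -0.21 to -0.16. Its groups spanned 80.9 to 103 RPM in treated and 90.1 to 117 RPM in control libraries, overlapped, and gave a log2 fold change of -0.22 ± 0.13 (SE, adjusted p = 0.554, 0.173 with the block). Bmp4, another BMP ligand gene, was low at P0, at 0.347 to 1.08 RPM in treated and 0.378 to 1.97 RPM in control libraries, and its pairs were split 2 and 2. The antagonist genes were low as well, with Fst at 1.99 to 5.63 and 2.33 to 8.54 RPM and Nog at 0.450 to 2.42 and 0.526 to 2.35 RPM, both also split 2 and 2. The log2 fold changes of Bmp4 (-0.79 ± 0.60), Fst (-0.30 ± 0.48) and Nog (-0.04 ± 0.59) carried the widest standard errors of the 10. On the other strand, Bmp4 overlaps Gm15217 and Gm15222, and Fst overlaps Gm47040.

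At P6 none of the 10 genes was called, and neither was any of the 15322 genes tested with edgeR, although 289 had an unadjusted p under 0.05 and DESeq2 called 13 (0.0548%). Id1 was the only one of the 10 whose treatments did not overlap, against 7.19% of genes, at 88.0, 94.2 and 75.7 RPM in treated and 99.6, 166 and 103 RPM in control libraries. The compound E libraries were lower in every pair, by log2 ratios of -0.82 to -0.18. The log2 fold change was -0.51 ± 0.25 (SE, adjusted p = 1.00, 0.591 with the block), and the exact permutation p of 0.1 is the smallest that 3 against 3 libraries allow. All pairs moved in one direction in 5 of the 10 genes, lower for Id1, Id3 and Inhba and higher for Id2 and Fst, against 32.9% of genes.

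Bmp2 at P6 was at 20.0, 13.7 and 11.4 RPM in treated and 22.1, 10.9 and 9.20 RPM in control libraries. Its groups overlapped, its pairs differed in sign, and its log2 fold change was 0.11 ± 0.40 (SE). Inhba was at 27.0, 20.3 and 11.5 RPM in treated and 59.9, 44.1 and 13.8 RPM in control libraries. Pairs 1 and 2 gave log2 ratios of -1.15 and -1.12, close to those at P0, and pair 3, which was low in both treatments, gave -0.25. The log2 fold change of Inhba was -0.99 ± 0.55 (SE, adjusted p = 1.00), -0.84 ± 0.22 (0.534) with the block and -1.13 ± 0.26 (1.00) without pair 3.

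Id3 at P6 was at 90.8, 86.5 and 104 RPM in treated and 92.6, 131 and 126 RPM in control libraries, and its fitted log2 fold change was -0.31 ± 0.17 (SE). Id2 spanned 666 to 919 RPM in treated and 634 to 841 RPM in control libraries (log2 fold change 0.18 ± 0.21), and Id4 spanned 251 to 429 and 203 to 430 RPM (0.11 ± 0.34). Bmp7 was at 49.3 to 75.9 and 58.2 to 73.1 RPM (-0.03 ± 0.18). These ranges overlapped in each of the 4 genes.

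The low genes at P6 varied widely between libraries. Fst was at 2.74, 4.95 and 18.9 RPM in treated and 2.17, 1.62 and 9.12 RPM in control libraries, so both libraries of pair 3 lay above all others. Its log2 fold change was 1.05 ± 0.88 (SE), and -0.09 without the compound E library of replicate 3. Bmp4 was at 1.91, 26.7 and 17.5 RPM with compound E against 0, 2.45 and 18.6 RPM with DMSO. In the library at 0, 3 counts would be 0.125 RPM. Both libraries of pair 3 were high, and of the others the compound E library of replicate 2 was. Nog stayed at or under 1.88 RPM, with 0 counts in the DMSO library of replicate 2, where 3 counts would be 0.108 RPM. The part of the SC, hair cell, mesenchymal and macrophage marker sums of pair 3 in the Fst, Bmp4 and Inhba values was not tested.

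**Figure D3:**
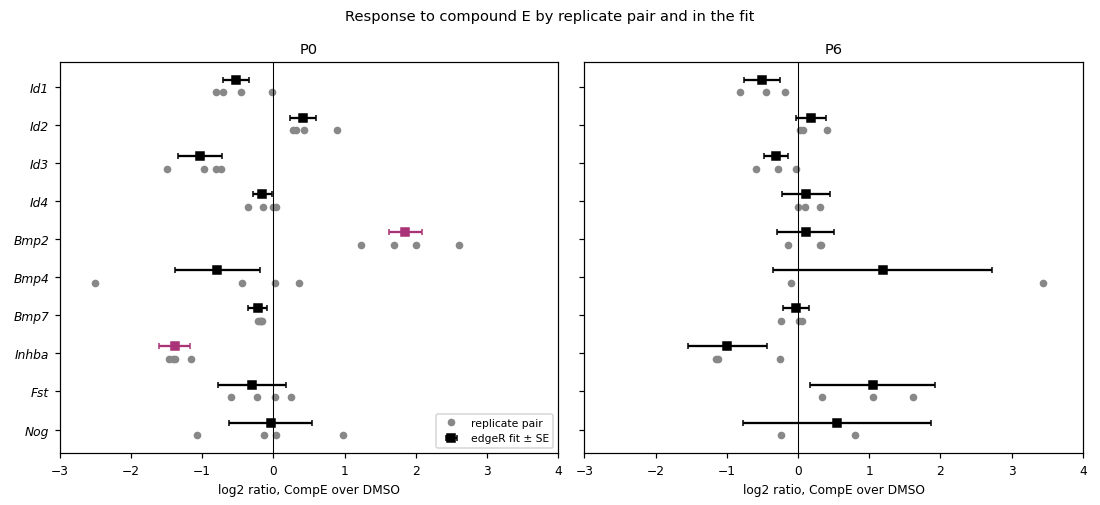
Log2 ratios of compound E over DMSO for each replicate pair (grey dots) and the edgeR log2 fold change with its SE (squares, purple where called) at P0 and P6. At P0 the Bmp2 pairs lie between 1.24 and 2.61 and the Inhba pairs between -1.46 and -1.16. At P6 no square is called, and pairs with a library at 0 counts, 1 for Bmp4 and 1 for Nog, have no dot.

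The difference between the responses at the 2 ages was tested as an interaction over all 14 libraries. For Bmp2 the response at P6 was lower than at P0 by a log2 difference of -1.72 ± 0.45 (SE), with an unadjusted p of 0.00179, an adjusted p of 0.484, and 0.0591 with the replicate block. No interaction was called among the 10 genes or among the 17090 tested (0%), where 811 had an unadjusted p under 0.05. None of the 10 was called either at an adjusted p of 0.05 alone (0.0117% of genes), with DESeq2 (0.123%), with the replicate block (0.0936%) or with the batch block (0.0878%). For Inhba the interaction was 0.41 ± 0.58 (SE) and for Id3 it was 0.74 ± 0.42, so the response of either gene at P0 was not shown to differ from that at P6. For Id1 the interaction was 0.02 ± 0.32.

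Several of these genes differed between P0 and P6, though no batch holds both ages, so age and batch cannot be told apart. In DMSO libraries 3 of the 10 genes were called, all lower at P6, against 7.12% of genes (3.38% lower). Bmp2 fell 3.72-fold (log2 fold change -1.90 ± 0.33, SE, adjusted p = 0.00134), Inhba 4.16-fold (-2.06 ± 0.44, 0.00463) and Id3 2.62-fold (-1.39 ± 0.31, 0.00604). Every P6 DMSO library lay below every P0 DMSO library for these 3 genes and for Id1, Id4 and Bmp7, giving 6 of 10 without overlap against 31.1% of genes. Id1 (-0.82 ± 0.23, adjusted p = 0.0225) and Bmp7 (-0.52 ± 0.15, 0.0278) missed the thresholds, though Id1 was called without the DMSO library of replicate 2 at P6 (-1.14, adjusted p = 0.00538) or without that pair (-1.14, 0.00628). Bmp4 was at 2.66 ± 1.18 (adjusted p = 0.124), which ran from 0.26 without the DMSO library of replicate 3 at P6 to 3.24 without pair 1 at P6, where it was called (0.00993). At an adjusted p of 0.05 alone 5 of the 10 passed, against 22.5% of genes, and with DESeq2 3 were called, against 7.44%. With DMSO the summed SC markers were lower at P6 in the mean, but the ranges overlapped (3326 to 6636 against 5913 to 11043 RPM at P0). Otoa (348 against 104 RPM) and Sox10 (367 against 313 RPM) went the other way. The mesenchymal sum had a higher mean at P6 (2442 against 1038 RPM), though Col1a1 and Col3a1 were lower in the mean. The part of these markers was not tested. Without 1 library or pair, the adjusted p for Id3 rose above 0.01 in 10 of 21 fits and for Inhba in 8, at most to 0.0345 and 0.0221. For Id3 these left out the DMSO library of replicate 1 or 2 at P0, any 1 DMSO library at P6, pair 2 or 4 at P0 or any pair at P6. For Inhba they left out the DMSO library of replicate 2, 3 or 4 at P0 or of replicate 2 at P6, pair 2, 3 or 4 at P0, or pair 2 at P6, and the call for Bmp2 was lost without pair 2 at P6 (adjusted p = 0.0145).

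In compound E libraries Bmp2 was the 1 gene of the 10 called between the ages, against 6.43% of genes. It fell 12.3-fold, from 204 ± 59.2 to 15.05 ± 4.47 RPM (log2 fold change -3.62 ± 0.36, SE, adjusted p = 1.95e-05), and remained called in all 21 fits without 1 library or pair. Inhba (-1.65 ± 0.43, adjusted p = 0.0150) and Id1 (-0.79 ± 0.23, 0.0262) were lower and Bmp4 (4.65 ± 1.28, 0.0195) higher at P6 without passing the thresholds, so that 4 of the 10 passed at an adjusted p of 0.05 alone, against 22% of genes. DESeq2 called Inhba and Bmp4 as well (adjusted p = 0.000574 and 0.00328), 3 of the 10 against 6.92% of genes. Without 1 library or pair, Bmp4 ran from 3.89 without pair 2 at P6 to 5.18 without pair 1. It was called in 3 of 21 fits, without the DMSO library of replicate 1 or 3 at P6 or without pair 1 at P6, and Inhba in 2, without the DMSO library of replicate 3 at P6 or without pair 3. Groups did not overlap for Id1, Id4, Bmp2, Bmp4, Bmp7 and Inhba, 6 of 10 against 38.2% of genes. For Id2 the ages overlapped in both treatments, with log2 fold changes of 0.08 ± 0.21 with DMSO and -0.14 ± 0.21 with compound E. With compound E the summed SC markers were lower at P6 without overlap (2296 to 3805 against 5301 to 6378 RPM at P0). Sox10 (370 against 365 RPM) and Otoa (243 against 224 RPM) had a higher mean at P6. The mesenchymal sums overlapped (1190 to 3260 against 1191 to 1342 RPM). The part of these markers was not tested.

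Around these genes, 71 others of the BMP, activin and TGF-β pathways were listed by role, and 61 were tested at P0. Of these, 2 were called, where 1.22% of all genes were. Bambi, a pseudoreceptor that dampens BMP and TGF-β signaling, was at 22.0 to 24.4 RPM in treated and 40.6 to 64.4 RPM in control libraries and fell 2.20-fold (log2 fold change -1.14 ± 0.13, SE, adjusted p = 0.00139). Atoh8, a bHLH factor gene known to respond to BMP signaling, was at 3.55 to 6.35 RPM in treated and 0.275 to 0.870 RPM in control libraries and rose 7.31-fold (2.87 ± 0.37, adjusted p = 0.00232). Neither gene's treatments overlapped, nor did those of the uncalled pathway genes Tgfb2, Tgfbr1, Bmpr1b and Fstl3, where 9.88% of all genes did not overlap. Atoh8 was called in the direction of Bmp2 and Bambi in that of Inhba. None of the 14 other ligands, 15 receptors and co-receptors, 12 Smads and Smad regulators or 3 E proteins tested was called, and the remaining 10 antagonists and 5 response genes were not either. The median log2 fold change was -0.05 over the 61 genes. In 5 of the 12 fits without 1 library or pair at most 1 pathway gene was called. These left out the compound E library of replicate 3 or 4 or pair 2, 3 or 4, and no call was left without that replicate 4 library, pair 3 or pair 4. At P6 none of 60 was called. Bambi was then at 30.0 ± 5.58 RPM in treated and 43.7 ± 5.14 RPM in control libraries, and Atoh8 at 2.21 ± 1.74 and 1.06 ± 0.62 RPM. At this age the treatments did not overlap for Bambi, Bmpr1a, Skil and Msx2, where 7.19% of all genes did not overlap.

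**Figure D4:**
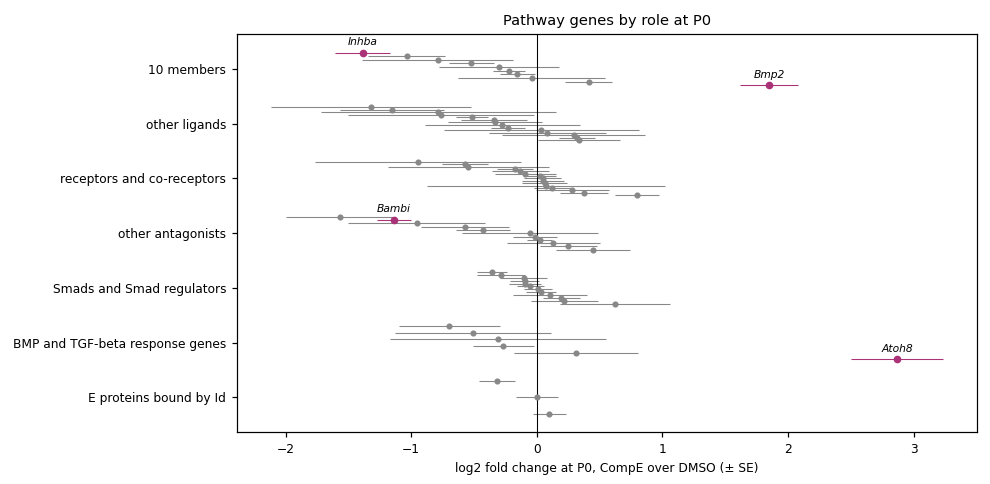
Log2 fold change at P0 (compound E over DMSO) with its SE for the 10 genes and for 61 other pathway genes by role, with called genes in purple. Bmp2 (1.85) and Atoh8 (2.87) lie to the right and Inhba (-1.39) and Bambi (-1.14) to the left, and the other genes are uncalled.

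Between the ages, 5 of the 61 pathway genes were called with DMSO (7.12% of all genes) and 6 with compound E (6.43%). The BMP ligand gene Bmp6 was higher at P6 in both, at 420 ± 58.8 against 44.1 ± 21.7 RPM with DMSO (log2 fold change 3.30 ± 0.47, SE) and 329 ± 82.9 against 48.3 ± 20.9 RPM with compound E (2.89 ± 0.46). Chrdl1, which encodes a BMP antagonist, was also higher (1.87 ± 0.25 and 1.53 ± 0.25). Fstl1, a secreted follistatin-like protein gene, was lower (-2.07 ± 0.29 and -2.20 ± 0.29). With DMSO, the TGF-β response gene Ctgf (-2.98 ± 0.42) and the ligand gene Tgfb2 (-1.02 ± 0.19) were called lower. With compound E, the ligand gene Tgfb1 (1.74 ± 0.39) was called higher and the receptor gene Tgfbr1 (-2.30 ± 0.46) lower. Bmp2 and Bmp6 differed between the ages in opposite directions in both treatments.

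Across libraries, the 10 genes were compared by their deviations from the 4 group means of log2(RPM + 1), with 14 libraries that share depth and batch. Among the 45 pairs of the 10 genes, Pearson's r ran from -0.89 (Id1 and Nog) to 0.88 (Id4 and Inhba), with 7 pairs above 0.5 and 9 below -0.5. Nog rested on 0 to 83 counts per library. In both P6 groups replicate 3 was lowest for Id4 (251 RPM treated, 203 RPM control) and for Inhba (11.5 and 13.8 RPM). The part of these libraries in that r was not tested. Id1 and Id3 gave 0.70, and Bmp2 and Bmp4 gave -0.72. Bmp4 rested on 10 to 60 counts per library at P0 and on 0 to 768 at P6. The part of single P6 libraries in the r of Bmp2 and Bmp4 was not tested. Among 11335 genes that averaged 5 RPM or more, those most like Bmp2 were Dusp6 (r = 0.90), Pkd2l1 (0.87) and Cdk2ap1 (0.86), and those most like Inhba were Trim50 (0.97), Ace (0.96) and Ckap4 (0.95). For Id1 they were Gjb2 (0.94), Tbx2 (0.94) and Tulp2 (0.92), for Id3 Ranbp17 (0.93), Ctxn1 (0.92) and Ash2l (0.92), for Id2 Gm15417 (0.96), Psmd8 (0.94) and Rab5a (0.93), and for Id4 Tuba1a (0.97), Acot1 (0.95) and Emid1 (0.94). Those of Bmp7 were Camk1d, Rhbdf2 and Ifitm3 (0.90 to 0.92), those of Bmp4 Scnn1g, Smc1a and Tshz2 (0.92 to 0.93) and those of Fst Car7, Dnajc5 and Particl (0.93 to 0.95), while Nog was below the minimum level. These correlations describe these libraries only, and how high an r a search over this many genes gives by chance was not tested.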

How the data were processed

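The authors trimmed reads with Trim Galore 0.6.0 and cutadapt 1.15, mapped them with STAR 2.7.0f (versions per the submitters' processing notes) to GRCm38 and deposited raw counts per gene, without normalization. Libraries were amplified full-length cDNA without molecular identifiers. RPM was each count over the library total, and RPKM used union exon lengths of the GENCODE annotation of GRCm38. Counts were tested with edgeR 4.0.16 in R 4.3.3 (TMM, glmQLFit, glmQLFTest and a filterByExpr minimum of 10 counts), separately at P0 and P6 and over all 14 libraries for the interaction and the age comparisons. A call needed a change of at least 2-fold and a p, adjusted by Benjamini-Hochberg over all genes tested, no higher than 0.01. Exact permutation tests on RPM were two-sided. Differences are compound E minus DMSO, or P6 minus P0.

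Replicate numbers follow the labels' batches. At P0 numbers 1 and 2 are batches 1 and 2, and numbers 3 and 4 share batch 3. At P6 the numbers are batches 4, 5 and 6. Same-numbered libraries deviated together (r over genes 0.162 to 0.500 at P0 and 0.264 to 0.620 at P6), and blocked fits took them as pairs. No replicate libraries agreed within the noise of sampling (lowest chi-square over degrees of freedom 19.0).

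The 10 genes and all lists were chosen with earlier results of these data known. All 10 were named in each comparison. Of the pathway lists, every gene called in a treatment comparison or the interaction was named, with the 3 largest increases and decreases among called genes in each age comparison. Also named were the 3 genes of highest correlation with each member. Scripts were tested on simulated data. Alternatives were DESeq2 1.42.0, its size factors in edgeR, no filter on low counts, an adjusted p of 0.05, replicate and batch blocks, all libraries in one fit, and leaving out each library or pair.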

Additional observations from a re-analysis of the deposited data

Results flagged for a closer look

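In the P0 compound E group, the Id2 value of replicate 1 was 1247 RPM, while the other 3 libraries lay between 875 and 932 RPM. The gap to its nearest neighbor made up 0.846 of the range of the group, above Dixon's 95% critical value for 4 samples. It was the 1 such value in 20 groups of 4 examined, where chance gives about 1. Without this library the mean difference of Id2 at P0 was 183 RPM, against 267 RPM with it. The DMSO library of replicate 1, at 998 RPM, was also the highest of its group, and without that library alone the difference was 357 RPM.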

How the results depend on the processing

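Bmp4 rested on 0 to 768 counts per library, Fst on 45 to 518 and Nog on 0 to 83. The cause of each shift below was not tested. Genes called at P0 numbered 195, against 617 when a looser adjusted p of 0.05 alone was required, 443 with DESeq2, 350 with the replicate block, 334 with the batch block and 117 with all 14 libraries in one fit, and 1 to 225 without 1 library or pair (225 without the DMSO library of replicate 1, and 1 without pair 4). In the fit of all 14 libraries 1 of the 10 genes was called at P0, since Inhba had an adjusted p of 0.103, and 1 pathway gene. Leaving out 1 library or pair gave 0 to 2 of each. Replicate numbers as pairs added Id3 at P0 (-1.04) and changed no other call among the 10 genes. At P6 DESeq2 called 13 genes. The interaction gave 2 genes at 0.05, 33 with DESeq2, 1 with no filter, 16 with the replicate block and 15 with the batch block, and 0 to 2 without 1 library or pair. Between the ages with DMSO, the main fit called 1216 genes, 3 of the 10 and 5 pathway genes. Without 1 library or pair, the same call gave 667 to 1281 genes and 1 to 3 of the 10. At 0.05 alone 3840 genes, 5 of the 10 and 14 pathway genes passed, and DESeq2 called 1993 genes and 8 pathway genes. With compound E the main fit called 1099 genes, 1 of the 10 and 6 pathway genes. Without 1 library or pair, that call gave 548 to 1295 genes and 1 to 3 of the 10. At 0.05 alone 3759 genes, 4 of the 10 and 19 pathway genes passed, and DESeq2 called 1854 genes, 3 of the 10 and 10 pathway genes. The interaction of Id1 was -0.0070 with no filter on low counts.

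Values whose sign turned without 1 library or pair were all uncalled. At P0 they were the log2 fold changes of Fst (-0.63 to 0.33) and Nog (-0.55 to 0.44), and at P6 those of Id4 (-0.17 to 0.33), Bmp2 (-0.14 to 0.59), Bmp7 (-0.11 to 0.12), Fst (-0.087 to 2.19) and Nog (-0.038 to 1.59). Among interactions they were Id1 (-0.13 to 0.34), Id4 (-0.010 to 0.51) and Inhba (-0.020 to 0.82). Between the ages they were Id2 (-0.085 to 0.22), Fst (-1.06 to 0.71) and Nog (-1.47 to 0.13) with DMSO, and Id2 (-0.23 to 0.013) and Nog (-0.15 to 0.65) with compound E. Differences in RPM turned at P0 for Fst (-1.38 to 0.745) and Nog (-0.386 to 0.340), and at P6 for Id4 (-42.9 to 80.1), Bmp2 (-1.53 to 4.99), Bmp7 (-6.63 to 6.66), Fst (-0.459 to 7.60) and Nog (-0.0564 to 0.882).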
